A study of Mus musculus with 6 samples.

Results

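Gata3, Foxa1, Pparg, Grhl2, Grhl3, Elf3, Ehf, Klf5 and Tbx3 encode transcription factors of the luminal layers of the urothelium, the epithelium that lines the bladder. The open chromatin in and around these 9 genes was followed in mouse urothelial cells with and without Stag2. For each gene, the peak intervals overlapping its annotated span, widened by 100 kb on both sides, were taken from the 6 peak lists. The best 100000 intervals of each list, ordered by the fold of the peak over its local background, were merged into regions wherever they shared at least 1 bp. This gave 308 regions around the 9 genes, of 138957 in the whole genome. The genes were chosen for their role in urothelium, with earlier results of these data known, and the rule uses no measured value.

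Luminal urothelial identity rests on a small network of such factors. Foxa1, a forkhead factor, can bind closed chromatin and open it, and Gata3, a zinc finger factor, works with it in luminal epithelia. Pparg is a lipid-activated nuclear receptor that pairs with retinoid X receptors and drives urothelial differentiation, with the ETS factor Elf3 among its targets. Grhl2 and Grhl3 are grainyhead-like factors that maintain epithelial junctions and barriers, and Grhl3 is needed for the terminal differentiation of the superficial umbrella cells. Ehf is an epithelial ETS factor closely related to Elf3, Klf5 is a zinc finger factor needed for urothelial maturation, and Tbx3 is a T-box factor that acts mostly as a repressor.

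ATAC-seq marks open chromatin by the insertion of sequencing adapters with a transposase. Peeled urothelium was taken 1 week after TMX induction, TMX being given in the diet, and GFP-positive, DAPI-negative cells were sorted, 50000 per condition. There were 3 Stag2-WT and 3 Stag2-KO libraries, labelled as biological replicates of batch 1; both genotypes received TMX and the same sort. Stag2 is a component of cohesin, a ring-shaped complex that forms chromatin loops and holds sister chromatids together. The sources used here do not give the recombinase, the cells that express it, the mouse strain, the age or the number of animals behind each library, so p-values measure only how these libraries vary. Cells were pooled within a library, so fewer cells with an open site and less opening per cell cannot be told apart.

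The 6 lists had 149153 to 260462 distinct intervals (181987 to 299636 peaks), and the background coverage implied by the peak statistics was between 5.89 and 7.98. Intervals near gene ends made up between 18.2% and 19.0% of the best 50000 intervals in the Stag2-WT lists and between 19.1% and 21.2% in the Stag2-KO lists. Among the 154 regions around the 9 genes found in all 6 ranked lists, Stag2-KO replicate 3 was closer to Stag2-WT replicates 1 and 3 than to the other Stag2-KO libraries. Its median absolute difference in log2 rank was 0.309 and 0.327 against those Stag2-WT libraries, and 0.432 and 0.438 against Stag2-KO replicates 1 and 2. Of 13 urothelial marker genes, 9 in each Stag2-WT library had an interval at a gene end among the best 100000. In the Stag2-KO libraries 12, 12 and 10 had one, Krt18 in every Stag2-KO and no Stag2-WT library, and Trp63 in none. Of 6 leukocyte markers between 0 and 2 had one, Ptprc, Lyz2 and Adgre1 being among those with none, and of 6 fibroblast markers between 1 and 5, Lum having none. Of 5 smooth muscle markers 2 or 3 had one, Tagln and Cnn1 having none. All 5 endothelial markers were listed in Stag2-KO replicate 1 and between 0 and 2 of them in the other libraries. Fibroblast and smooth muscle markers varied as well, in both directions. Among the best 50000, Stag2-WT replicate 1 alone had fibroblast markers (2 of 6). Col1a1 ranked better in every Stag2-WT than in every Stag2-KO library, and Myh11 ranked 13638 and 12425 in Stag2-WT replicates 1 and 3 and was in no other ranked list. Of fibroblast markers with an interval in at least 3 libraries, 2 had the better mean log2 rank in Stag2-KO (Col1a2 and Pdgfra) and 2 in Stag2-WT. Of such smooth muscle markers there was 1 in each direction, Des being better in Stag2-KO. Of such endothelial markers there was also 1 in each direction, Kdr being better in Stag2-KO and Tek in Stag2-WT. The 2 such leukocyte markers, Cd3e and Itgam, were better in Stag2-KO, and Cd3e ranked better in every Stag2-KO than in every Stag2-WT library. Of 10 such urothelial markers, 5 had all Stag2-KO ranks better than all Stag2-WT ranks, beside 16.2% of all gene ends. The reverse held for 0 of them, beside 1.73%. The part of the other cell types in the values around the 9 genes was not tested. At Stag2 itself, the best interval at a gene end ranked 29586, 34076 and 28720 in the Stag2-WT libraries and 16287, 20829 and 26329 in the Stag2-KO libraries, with a rank gain of 0.57 ± 0.31 (SE, limma adjusted p = 0.420). An open gene end does not check a deletion within the gene, and the paralog Stag1 had no interval at its ends in the ranked lists.

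RefSeq promoter sequences (GRCm38.p6, whose coordinates are those of mm10) were available for 5 of the 9 genes, with 7 annotated starts: Elf3, Foxa1, Gata3, Grhl3 and 3 starts of Pparg. The 5 printed here show how differently the starts of the luminal factors are built, and each lies at a place whose peaks are described below. Each is the 250 bases before the start, read 5′ to 3′ on the strand of the gene. Capitals mark matches to the motifs listed after the sequences.
Pparg first start, chr6:115360894-115361143, plus strand: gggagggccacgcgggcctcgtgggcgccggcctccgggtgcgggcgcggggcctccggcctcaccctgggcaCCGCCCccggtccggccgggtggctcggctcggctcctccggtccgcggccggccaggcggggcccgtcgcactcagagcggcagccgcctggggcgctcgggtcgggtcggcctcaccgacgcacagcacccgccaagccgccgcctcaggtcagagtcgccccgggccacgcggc
Pparg inner start, chr6:115421816-115422065, plus strand: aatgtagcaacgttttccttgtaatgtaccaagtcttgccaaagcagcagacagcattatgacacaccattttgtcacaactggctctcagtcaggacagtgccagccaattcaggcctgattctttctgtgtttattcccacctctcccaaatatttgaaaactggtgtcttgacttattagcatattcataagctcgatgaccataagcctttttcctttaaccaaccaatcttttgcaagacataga
Gata3, chr2:9878601-9878850, minus strand: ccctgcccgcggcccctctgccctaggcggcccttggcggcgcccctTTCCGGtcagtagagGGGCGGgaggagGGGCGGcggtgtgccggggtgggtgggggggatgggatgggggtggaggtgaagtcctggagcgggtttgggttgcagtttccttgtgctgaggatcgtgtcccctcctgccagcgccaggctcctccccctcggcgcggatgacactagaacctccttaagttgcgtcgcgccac
Foxa1, chr12:57546112-57546361, minus strand: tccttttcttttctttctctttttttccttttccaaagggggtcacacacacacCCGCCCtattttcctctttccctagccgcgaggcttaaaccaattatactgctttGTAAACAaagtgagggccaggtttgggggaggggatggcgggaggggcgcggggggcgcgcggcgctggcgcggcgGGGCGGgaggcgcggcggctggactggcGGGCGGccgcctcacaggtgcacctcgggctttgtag
Elf3, chr1:135258473-135258722, minus strand: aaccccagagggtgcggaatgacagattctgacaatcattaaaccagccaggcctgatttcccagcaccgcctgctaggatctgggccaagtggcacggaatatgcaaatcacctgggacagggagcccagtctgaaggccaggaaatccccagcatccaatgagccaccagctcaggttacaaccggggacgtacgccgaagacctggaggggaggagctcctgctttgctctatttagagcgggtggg

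The first Pparg start is the richest of these in G and C, at 82.4% of bases with 38 CpG dinucleotides, and the inner start the poorest, at 40.8% with 2 CpG. Gata3 has 70.0%, Foxa1 62.0% and Elf3 57.2%, against a median of 52.4% over 32851 mouse promoters. Both strands were searched for short forms of the motifs of these factor families. The KLF or SP motif GGGCGG was present in 5 of the 7 promoters, against 32.7% of all promoters. The first Pparg start and the Pparg start not printed were both among the 5. This motif holds only G and C, and the part of base composition in its count was not tested. The forkhead motif TGTTTAC was found in 1, that of Foxa1 itself (3.17% of all), the ETS motif CCGGAA in 1, that of Gata3 (12% of all), and the T-box motif AGGTGTG in 1, at the Pparg start not printed (5.10% of all). None of the 7 held the GATA motif AGATAA (9.99% of all), the grainyhead motif AACNGGTT (1.79%), the AP-1 motif TGANTCA (6.75%) or the PPAR with RXR motif, AGGTCA and AGGTCA with 1 base between them (0.0335%). A match describes letters in this window and not a bound site.

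The first question was whether open chromatin around the luminal factors ranked differently without Stag2. A rank of 1 is the strongest interval of a library, a region with no interval among the best 100000 takes the next rank after them, and the rank gain is the mean of −log2 rank in Stag2-KO minus that in Stag2-WT. A gain of 1 therefore stands for a rank number smaller by a factor of 2 in Stag2-KO. Of the 308 regions, 230 had an interval in at least 3 libraries and were tested. None passed the threshold of 0.05 on the adjusted p of limma in either direction, and the smallest adjusted p was 0.243. Over all 100565 regions tested, 0.0119% were called with a better rank in Stag2-KO (12 regions) and 0.00895% with a poorer one (9 regions), or 0.0209% in either direction. With a block on the replicate number, 16 regions were called with a better and 16 with a poorer rank. At an unadjusted p below 0.05, limma gave 27 of the 230 with a better rank in Stag2-KO, beside 6.97% of all regions, and 8 with a poorer one, beside 7.84%. The calls depended on Stag2-KO replicate 3: without it, 4 regions around the 9 genes were called with a better rank in Stag2-KO, beside 0.884% of all regions, and none with a poorer one, beside 1.67%. They were 1 in the Pparg window, 1 in the Klf5 window and 2 in the Grhl2 window.

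Around the 9 genes, 144 of the 230 gains were positive and 86 negative, with a median of 0.15, beside 51.5% positive and a median of 0.02 over all regions tested. In 41 regions all 3 Stag2-KO libraries ranked better than all 3 Stag2-WT libraries, which is 17.8% beside 11.4% of all regions. The reverse held in 12 regions, 5.22% beside 8.17%. Ranking the same intervals by −log10 p in place of fold gave 123 positive and 107 negative gains with a median of 0.04, and 31 regions had opposite signs under the 2 rankings. Gene ends were few in these windows: 14 of the 230 tested regions (6.09%) overlapped the end of a protein-coding gene, beside 13.7% of all regions. The 216 other regions had a median gain of 0.15, where regions away from gene ends had a median of −0.01 in the whole genome.

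**Figure D1:**
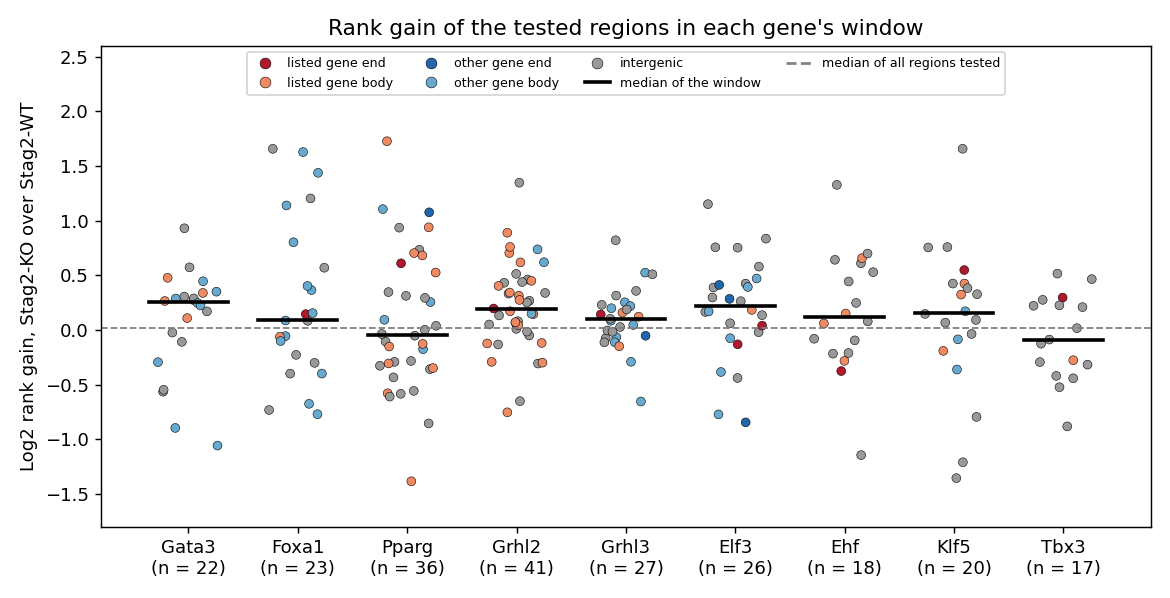
Rank gain (vertical axis, log2 scale, Stag2-KO over Stag2-WT) of the 230 tested regions, 1 point each, in the windows of the 9 genes, coloured by where the region lies, with the median of each window as a bar and that of all regions as a dashed line. The window medians run from −0.09 at Tbx3 to 0.26 at Gata3, and the points of every window lie on both sides of 0.

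The windows held 219, 212 and 220 intervals of the best 100000 in the Stag2-WT libraries and 232, 236 and 233 in the Stag2-KO libraries, or 217 ± 4.36 and 234 ± 2.08 (SD, n = 3 each). The genotypes did not overlap, and the exact permutation test gave a two-sided p of 0.1, the smallest that 3 libraries against 3 allow. Over whole lists they overlapped, with 392, 447 and 413 intervals against 519, 389 and 437 (exact permutation test, p = 0.7). No share over windows of other genes is given here, so how often such counts separate elsewhere cannot be told. Among the best 50000 there were 108, 105 and 110 against 131, 121 and 110 (exact permutation test, p = 0.2), where Stag2-KO replicate 3 equalled Stag2-WT replicate 3. By window, the mean number among the best 100000 was higher in Stag2-KO for 7 genes and lower for Pparg and Tbx3. The exact permutation p was 0.1 for Grhl2 (37.3 ± 0.577 against 42.3 ± 1.15), Elf3 (21.7 ± 2.52 against 26.7 ± 1.53) and Klf5 (18.7 ± 0.577 against 20.7 ± 0.577; SD, n = 3 each), and from 0.2 to 1 for the other 6. The differences between windows were not tested.

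An interval within 500 bp of an end was found in the ranked lists for 8 of the 9 genes. The test at gene ends takes, for each protein-coding gene, the end with the better mean rank over all 6 libraries. Of the 8, 7 had a positive gain and 1 a negative gain, with a median of 0.17, beside 0.23 over all 13306 gene ends tested, of which 70.3% were positive. None was called by limma at an adjusted p of 0.05, beside 0.0225% of all gene ends with a better rank in Stag2-KO and 0.0601% with a poorer one, or 0.0827% in either direction. At an unadjusted p below 0.05, 1 of the 8, that of Pparg, had a better rank in Stag2-KO, beside 11.2% of all gene ends, and none a poorer one, beside 1.96%. Both Pparg and Foxa1 had all Stag2-KO ranks better than all Stag2-WT ranks, beside 16.2% of all gene ends, and none had the reverse, beside 1.73%. When the share of intervals near gene ends in each library entered the fit, the gains of Elf3 (−0.11), Grhl3 (−0.15) and Ehf (0.47) changed sign. That share came from the same lists and was higher in every Stag2-KO than in every Stag2-WT library. Its part and that of genotype therefore cannot be told apart, here or in the gains with this share given below.

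The gene ends differed widely in strength. Klf5 had the best geometric mean rank over the 6 libraries, 10054, followed by Elf3 at 27788, Grhl2 at 31509, Tbx3 at 42006, Ehf at 46799 and Pparg at 49512. Grhl3 at 91817 and Foxa1 at 94740 were near the limit of the ranked lists, and Gata3 had no interval at either end of its span in any of them. Among neighbours in this order, the ranges over libraries did not overlap between Klf5 and Elf3 or between Pparg and Grhl3. They overlapped for every other pair of neighbours. Fold and p order these sites differently: by −log10 p, Klf5 ranked between 128 and 1545 and Elf3 between 837 and 1633 in the 6 libraries. Grhl3 then ranked between 22565 and 57389 and Foxa1 between 37533 and 55769, away from the limit of the lists.

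**Figure D2:**
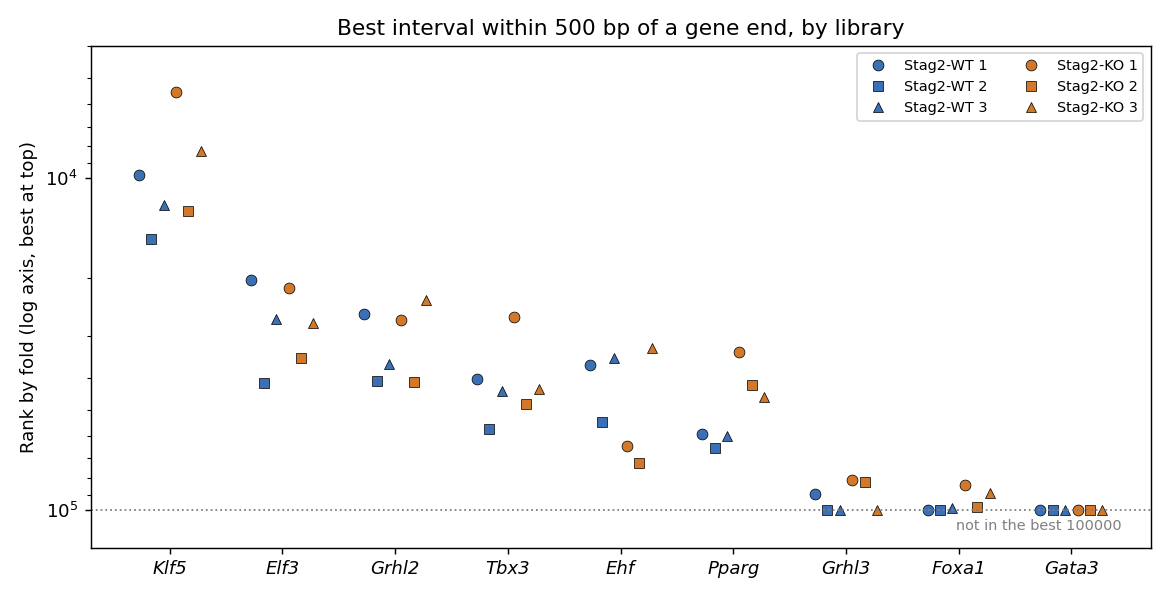
Rank by fold of the best interval within 500 bp of a gene end (vertical axis, log scale, best at the top) for the 9 genes in each of the 6 libraries, 1 symbol per library. The 3 Stag2-KO symbols lie above the 3 Stag2-WT symbols at Pparg and Foxa1, and points on the dotted line were not in the best 100000.

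At Pparg (chr6:115360879-115490404), 1 region covered the first 2 annotated starts (chr6:115360722-115362556), including the G- and C-rich stretch printed above. It ranked 58975, 64932 and 59773 in the Stag2-WT libraries and 33438, 42172 and 45644 in the Stag2-KO libraries. Every Stag2-KO library ranked it better than every Stag2-WT library. The gain was 0.61 ± 0.23 (SE, 95% confidence interval 0.12 to 1.10), with a limma p of 0.018 that became 0.342 after adjustment over all gene ends. It was 0.38 when the gene-end share entered the fit. By −log10 p its ranks were 38943, 28325 and 34885 against 14756, 10622 and 28748, with a gain of 1.03 ± 0.37 (limma adjusted p = 0.257), and Stag2-KO replicate 3 then overlapped the Stag2-WT range. The authors' fold of this interval was 6.33, 9.19 and 7.35 in Stag2-WT and 11.6, 13.1 and 9.06 in Stag2-KO, with replicate 2 of Stag2-WT inside the Stag2-KO range. At the inner start, the AT-rich stretch, the interval ranked 91097, 79887 and 63271 in Stag2-WT, 73186 and 81958 in Stag2-KO replicates 2 and 3, and was not listed in Stag2-KO replicate 1.

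The Pparg window had 36 tested regions, 17 with a positive and 19 with a negative gain (median −0.04). Yet it held 11 of the 41 regions in which all Stag2-KO ranks were better, 30.6% of its tested regions beside 11.4% of all regions. In 2 all were poorer, 5.56% beside 8.17%. A region in the gene body (chr6:115462880-115463368) had the best rank of the window outside gene ends, at 7470, 9822 and 6033 in Stag2-WT and 3279, 4413 and 4334 in Stag2-KO. Its groups did not overlap, but its gain of 0.94 ± 0.49 (limma adjusted p = 0.385) was −0.21 when ranked by −log10 p. Another body region (chr6:115479965-115480961), chosen after its values were seen as the largest gain around the 9 genes, ranked 11792, 11289 and 14841 against 1840, 4418 and 6690. Its gain was 1.73 ± 0.56 (limma adjusted p = 0.271), and −0.19 by −log10 p. The smallest p with a better rank in Stag2-KO belonged to a region in the neighbouring gene Syn2 (chr6:115279532-115279930), 80949 bp below Pparg. It was outside the best 100000 in Stag2-WT replicate 1, ranked 69349 and 99792 in the other Stag2-WT libraries, and 33154, 35749 and 58508 in Stag2-KO. All Stag2-KO ranks were better here, with a gain of 1.11 ± 0.29 (limma adjusted p = 0.258, and 0.0424 without Stag2-KO replicate 3, where the gain was 1.36). That gain was 0.54 when the gene-end share entered the fit. In the other direction a body region near the first start (chr6:115371819-115372116) ranked 44441, 73371 and 63493 in Stag2-WT. It was outside the best 100000 in Stag2-KO replicates 1 and 2 and ranked 69072 in replicate 3, within the Stag2-WT range (gain −0.58 ± 0.24, limma adjusted p = 0.318).

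Gata3 (chr2:9857078-9887953) had no ranked interval at the ends of its span, but its annotated start lies inside the span and was open. The region there (chr2:9878336-9878793), which covers the start and part of the stretch printed above, ranked 66777, 72386 and 63764 in Stag2-WT and 45658, 64428 and 51754 in Stag2-KO. Stag2-KO replicate 2 lay within the Stag2-WT range, and the gain was 0.34. A stronger body region upstream of that start (chr2:9879308-9879963) ranked between 23666 and 43906, with overlapping groups and a gain of 0.27. Of 22 tested regions in the window, 15 had a positive and 7 a negative gain (median 0.26). The strongest distal region (chr2:9802638-9803492), 53586 bp below the gene, ranked 4920, 3629 and 5559 in Stag2-WT and 8966, 2333 and 4987 in Stag2-KO. Replicates 1 and 2 of Stag2-KO were the poorest and the best of all 6, and the gain was −0.02 ± 0.61. By −log10 p this region ranked 8666, 8607 and 7643 against 17318, 13633 and 9847. Every Stag2-KO library was then poorer than every Stag2-WT library, with a gain of −0.68. Closer to the gene, 17266 bp below it, a region (chr2:9839469-9839812) ranked 36753, 30618 and 46964 against 17420, 21235 and 20619. All 3 Stag2-KO libraries were better there (gain 0.93 ± 0.33, limma adjusted p = 0.280). A region in the neighbouring gene Taf3 (chr2:9983433-9983892), 95480 bp above Gata3, went the other way, with ranks of 18484, 11769 and 24212 against 24833, 34212 and 55984 and a gain of −1.06 ± 0.42 (limma adjusted p = 0.301).

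Foxa1 (chr12:57540628-57548029) had an interval above its higher end (chr12:57548427-57548680) that was weak by fold, at the limit of the lists so ranked. It ranked 99825 and 99046 in Stag2-WT replicates 1 and 3, was outside the best 100000 in replicate 2, and ranked 84123, 97732 and 88952 in Stag2-KO. The groups did not overlap, but the gain was 0.15 ± 0.17 (limma adjusted p = 0.734). By −log10 p the ranks were 55769, 42782 and 48295 against 37533, 39443 and 44859, with overlapping groups and a gain of 0.27 ± 0.25. The start that carries the printed sequence lies within the span. The region upstream of it (chr12:57546350-57547358) ranked 27239, 58073 and 39355 in Stag2-WT and 34503, 55070 and 37287 in Stag2-KO, so the genotypes overlapped throughout (gain −0.06).

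Distal regions of Foxa1 carried larger gains by fold. Of 23 tested regions 13 had a positive and 10 a negative gain (median 0.09). In 6 (26.1%, beside 11.4% of all regions) all Stag2-KO ranks were better, and in 1 (4.35%, beside 8.17%) all were poorer. A region 24366 bp below the gene (chr12:57515525-57516262) ranked 12693, 9384 and 11004 in Stag2-WT and 2941, 2730 and 5194 in Stag2-KO. All 3 Stag2-KO libraries placed it well ahead of all Stag2-WT libraries, with a gain of 1.66 ± 0.49 (limma adjusted p = 0.266), and the gain was 0.33 by −log10 p. The strongest region of the window (chr12:57449868-57450520), in the neighbouring gene Mipol1 and 90108 bp from Foxa1, ranked 8646, 3824 and 4628 against 883, 2237 and 2619. Here too the groups did not overlap (gain 1.63 ± 0.67, limma adjusted p = 0.309), but the gain was −0.17 by −log10 p. A region 43910 bp below the gene (chr12:57496381-57496718) ranked better in every Stag2-WT library, at 21140, 23487 and 22608 against 42227, 27501 and 44343 (gain −0.73 ± 0.33, limma adjusted p = 0.336).

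**Figure D3:**
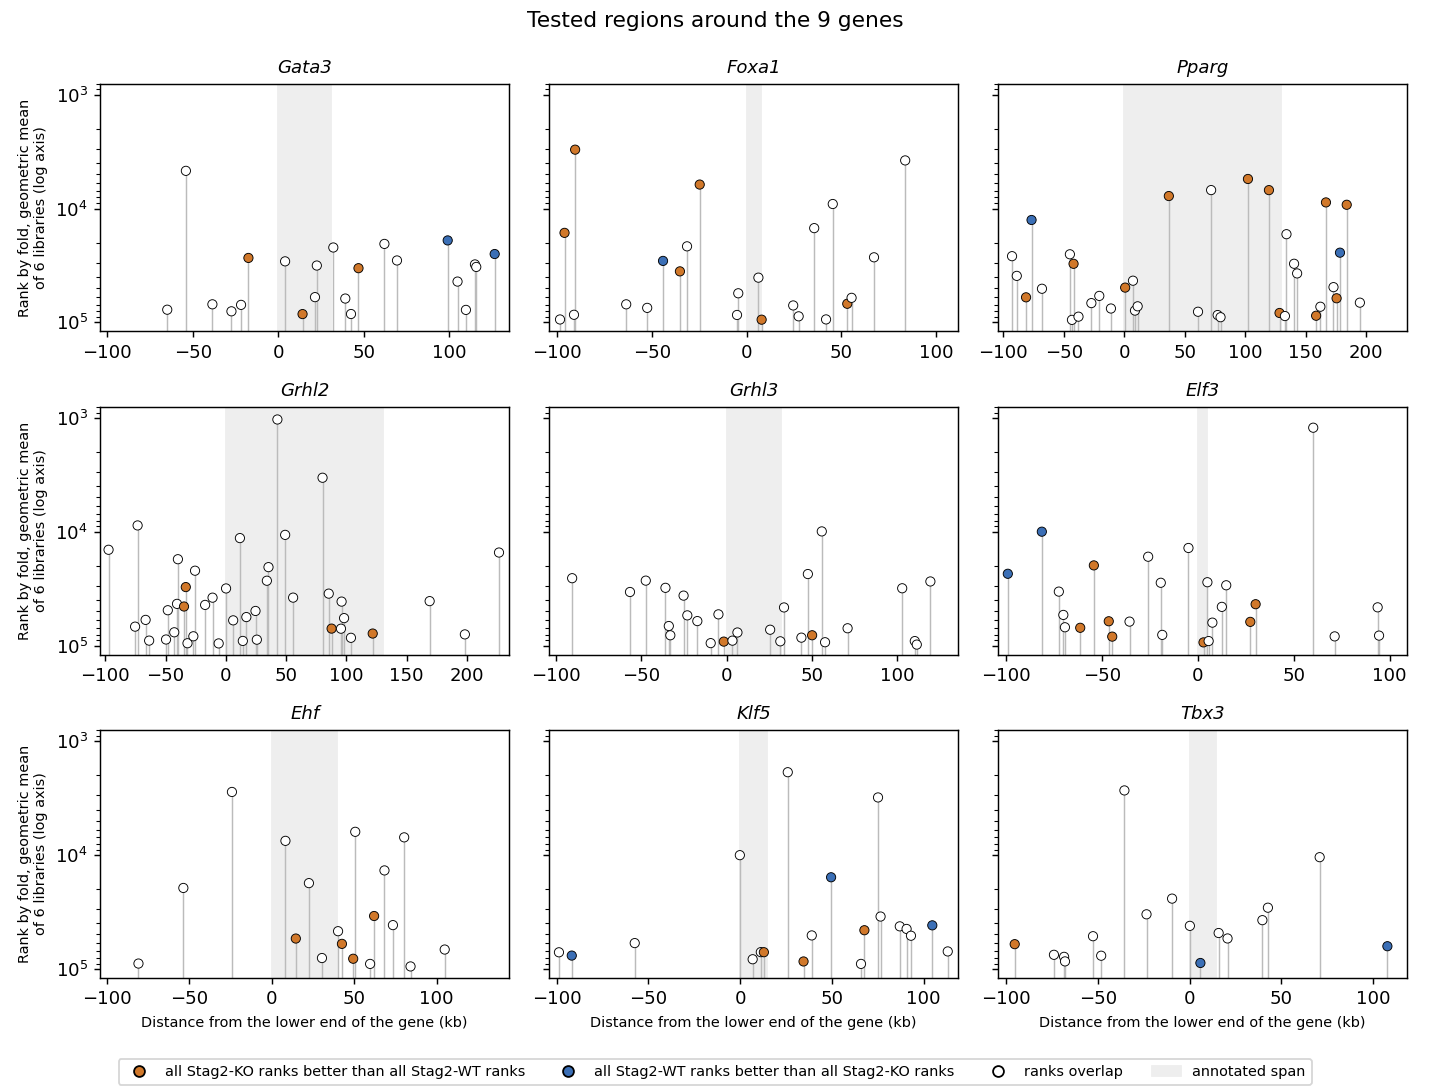
Tested regions in the windows of the 9 genes, placed by their distance from the lower end of the gene (horizontal axis, kb) and their geometric mean rank by fold over the 6 libraries (vertical axis, log scale, best at the top), with the gene span shaded. Filled points are the 41 regions where all Stag2-KO ranks were better and the 12 where all Stag2-WT ranks were better, and Pparg has 11 of the 41.

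Grhl2 (chr15:37232821-37363569) had the longest window, 331 kb, and the most regions, 52, or 15.7 per 100 kb beside 17.4 for Foxa1. Of the 52, 41 were tested, 31 with a positive and 10 with a negative gain (median 0.20). In 4 of them (9.76%, beside 11.4% of all regions) all Stag2-KO ranks were better. In none were all poorer, beside 8.17% of all regions. Its gene end (chr15:37232544-37233484) ranked 25771, 40934 and 36372 in Stag2-WT and 26702, 41079 and 23251 in Stag2-KO, with overlapping groups and a gain of 0.20 ± 0.31 (limma adjusted p = 0.803). A body region 42774 bp from the lower end (chr15:37275309-37275882) was the strongest around any of the 9 genes by geometric mean rank, at 1247, 1058 and 1194 in Stag2-WT and 1829, 1269 and 333 in Stag2-KO. The Stag2-WT libraries lay close together and between the Stag2-KO libraries (gain 0.34 ± 0.89, limma adjusted p = 0.867). A weak body region (chr15:37354404-37354893) was outside the best 100000 in Stag2-WT replicates 1 and 3, ranked 91868 in replicate 2, and ranked 75078, 60427 and 55934 in Stag2-KO. All Stag2-KO ranks were better (gain 0.62 ± 0.17, limma adjusted p = 0.263). Another body region (chr15:37317753-37318610) had the smallest p with a poorer rank in Stag2-KO, at 15321, 38248 and 33385 against 51768, 53704 and 33735. Stag2-KO replicate 3 lay between Stag2-WT replicates 3 and 2 (gain −0.75 ± 0.40, limma adjusted p = 0.391, and −0.35 without Stag2-WT replicate 1). The 2 regions called without Stag2-KO replicate 3 were a body region (chr15:37320371-37320727) and a region 67352 bp above the gene (chr15:37430921-37431248). The first was outside the best 100000 in Stag2-WT replicates 1 and 2, ranked 90246 in replicate 3, and ranked 36978, 50765 and 75527 in Stag2-KO, with a gain of 1.16 ± 0.22 without that library (limma adjusted p = 0.0421). The second had a gain of 0.94 ± 0.19 without it (limma adjusted p = 0.0449).

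Grhl3 (chr4:135541887-135573632), the umbrella cell factor, had a start that was weak by fold. The interval at its higher end ranked 89702 in Stag2-WT replicate 1 and 81105 and 82352 in Stag2-KO replicates 1 and 2, and in whole lists it ranked 135780, 128578 and 117100 in the other 3 libraries. Replicate 1 of Stag2-WT lay between the Stag2-KO libraries, and the gain within the ranked lists was 0.14 ± 0.18 (limma adjusted p = 0.754). By −log10 p this end ranked 34834, 51808 and 57389 in Stag2-WT and 30266, 22565 and 50226 in Stag2-KO. The groups overlapped there too, with a gain of 0.53 ± 0.34 (limma adjusted p = 0.344). Of 27 tested regions, 17 had a positive and 10 a negative gain (median 0.10). The best of the window was 23768 bp above the gene (chr4:135597400-135598141), at 9092, 16313 and 15554 against 5111, 8486 and 9643. Stag2-KO replicate 3 ranked it behind Stag2-WT replicate 1, so the groups overlapped (gain 0.82 ± 0.46, limma adjusted p = 0.410, and 0.16 when the gene-end share entered the fit). A nearby weaker region, 18320 bp above the gene (chr4:135591952-135592252), ranked better in every Stag2-KO library. It was outside the best 100000 in Stag2-WT replicate 1 and ranked 78096 and 99521 in the other Stag2-WT libraries, against 69253, 70243 and 75954 (gain 0.36 ± 0.16, limma adjusted p = 0.343). In Nipal3, 90262 bp below Grhl3 (chr4:135450850-135451625), the ranks were 36706, 12972 and 17858 against 55883, 19494 and 30462, with overlapping groups and a gain of −0.65 ± 0.49 (limma adjusted p = 0.520). Without 1 library that gain ranged from −0.26 to −1.08, and it was −0.28 when the gene-end share entered the fit.

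Elf3 (chr1:135253574-135258472) is a short gene whose start was among the more strongly open of the set. The region over it (chr1:135258212-135258838), which includes the Elf3 sequence above, ranked 20283, 41500 and 26567 in Stag2-WT and 21504, 34978 and 27372 in Stag2-KO. The 3 Stag2-KO libraries lay inside the Stag2-WT range (gain 0.04 ± 0.33, limma adjusted p = 0.970). A second, weaker region 473 bp above that end (chr1:135258945-135259394) ranked between 75518 and the limit of the lists, with a gain of −0.13 ± 0.14. Of 26 tested regions in the window, 19 had a positive and 7 a negative gain (median 0.22). In 7 of them (26.9%, beside 11.4% of all regions) all Stag2-KO ranks were better, and in 2 (7.69%, beside 8.17%) all were poorer. The clearest by p was 46312 bp below the gene (chr1:135206951-135207262). It was outside the best 100000 in Stag2-WT replicate 1, ranked 67032 and 81544 in the other Stag2-WT libraries, and 37448, 45959 and 55840 in Stag2-KO (gain 0.84 ± 0.26, limma adjusted p = 0.269). The strongest region away from gene ends (chr1:135171956-135172481), 81093 bp below, ranked slightly better in every Stag2-WT library, at 8757, 9821 and 7353 against 12848, 12245 and 10027. Its gain was −0.44 ± 0.41 (limma adjusted p = 0.607). A region in Arl8a (chr1:135154021-135154953) also ranked better in all Stag2-WT libraries, at 14442, 18703 and 21293 against 44286, 26937 and 24043 (gain −0.77 ± 0.37, limma adjusted p = 0.356).

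Ehf (chr2:103263431-103303275), the ETS relative of Elf3, had the 1 negative gain among the 8 tested gene ends, a direction that turned (0.47) when that share entered the fit. The region over its higher end (chr2:103303095-103304173) ranked 36478, 54430 and 34908 in Stag2-WT and 64407, 72363 and 32523 in Stag2-KO. Stag2-KO replicates 1 and 2 were the poorest and replicate 3 was the best of all 6, so the groups overlapped (gain −0.38 ± 0.31, limma adjusted p = 0.599). A region 28169 bp above the gene (chr2:103331444-103332139) had a like order of libraries, at 5812, 23736 and 5648 against 25354, 33654 and 9884 (gain −1.15 ± 0.65, limma adjusted p = 0.409). That gain was −0.0551 when the gene-end share entered the fit, and −1.83 without Stag2-WT replicate 2. In both, replicates 1 and 2 of Stag2-KO were poorer than every Stag2-WT library and replicate 3 was not. Most of the window went the other way, with 11 positive and 7 negative gains among 18 (median 0.11). In 4 regions (22.2%, beside 11.4% of all regions) all Stag2-KO ranks were better, and in none were all poorer (beside 8.17%). A member of these 4, 9408 bp above the gene (chr2:103312683-103312955), ranked 86598 and 99827 in Stag2-WT replicates 2 and 3, was outside the best 100000 in replicate 1, and ranked 74580, 61845 and 74474 in Stag2-KO (gain 0.44 ± 0.16, limma adjusted p = 0.284). The strongest region, 23944 bp below the gene (chr2:103238989-103239487), ranked 3101, 4425 and 3016 against 1965, 3507 and 1687. Stag2-KO replicate 2 lay within the Stag2-WT range (gain 0.61 ± 0.61, limma adjusted p = 0.633), and by −log10 p the gain was −0.08.

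Klf5 (chr14:99298691-99313412) had the strongest gene end of the 9. It ranked 9775, 15241 and 12065 in Stag2-WT and 5494, 12614 and 8289 in Stag2-KO (chr14:99298236-99298840). Replicate 2 was the poorest of both genotypes, the groups overlapped, and the gain was 0.55 ± 0.48 (limma adjusted p = 0.616). By −log10 p the ranks were 1545, 304 and 1106 against 261, 128 and 473, with a gain of 1.68 ± 0.68 (limma adjusted p = 0.257) and overlap between Stag2-WT replicate 2 and Stag2-KO replicate 3.

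Above Klf5 the distal regions differed in direction. Of 20 tested regions 13 had a positive and 7 a negative gain (median 0.16). In 3 (15%, beside 11.4% of all regions) all Stag2-KO ranks were better, and in 3 (15%, beside 8.17%) all were poorer. A region 52769 bp above the gene (chr14:99366181-99366732) had the smallest p of all 230. It was outside the best 100000 in Stag2-WT replicates 1 and 3, ranked 54190 in replicate 2, and ranked 28219, 16592 and 36765 in Stag2-KO. All Stag2-KO ranks were better, with a gain of 1.66 ± 0.38 (limma adjusted p = 0.243, and 0.0436 without Stag2-KO replicate 3, where the gain was 1.91). In whole lists it was absent in Stag2-WT replicate 1 and ranked 100290 in replicate 3. Nearer, 34500 bp above the gene, a region (chr14:99347912-99348680) ranked 9225, 11341 and 9065 in Stag2-WT and 42800, 27511 and 13517 in Stag2-KO. Every Stag2-WT library placed it ahead of every Stag2-KO library (gain −1.36 ± 0.46, limma adjusted p = 0.276), and the gain was −0.31 when the gene-end share entered the fit. The strongest region of the window, 10996 bp above the gene (chr14:99324408-99324932), ranked 4805, 662 and 2003 against 2524, 1362 and 2001, with the Stag2-KO libraries inside the Stag2-WT range (gain −0.04 ± 0.83).

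**Figure D4:**
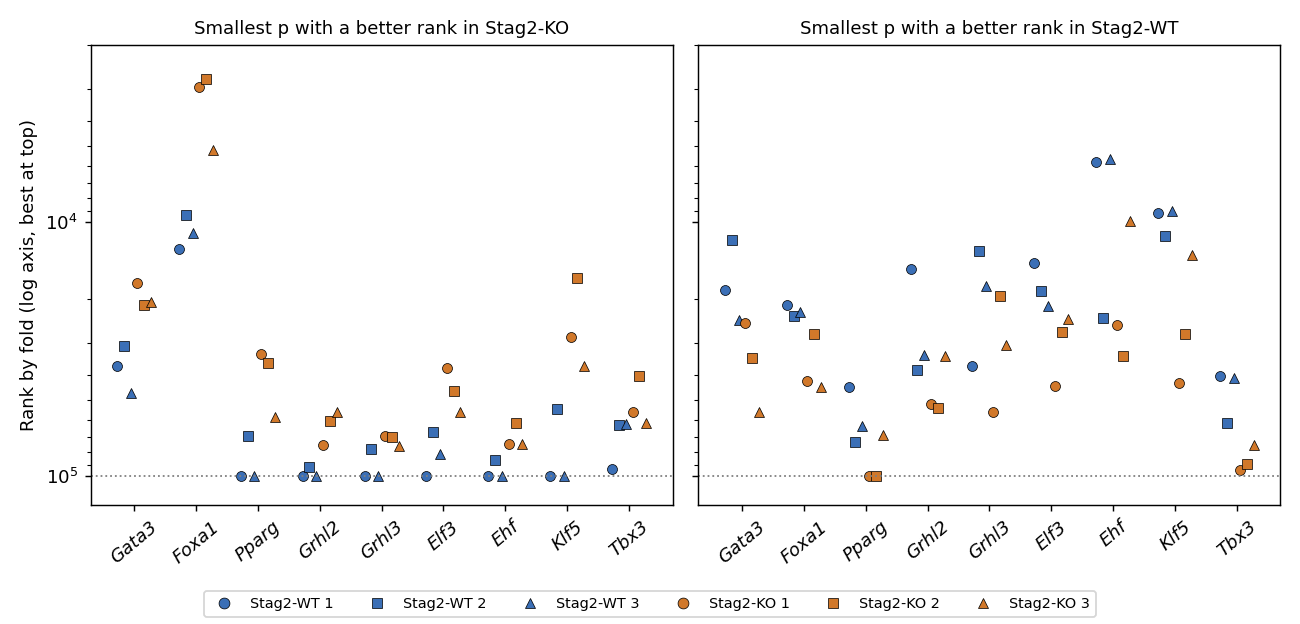
Rank by fold (vertical axis, log scale, best at the top) in each of the 6 libraries of the region with the smallest p in each window, on the left with a better rank in Stag2-KO and on the right in Stag2-WT, with the dotted line at the limit of the best 100000. On the left the symbols of the genotypes do not overlap for any of the 9 genes. On the right they overlap at Pparg, Grhl2, Grhl3 and Ehf. The regions were chosen by the p of the genotype comparison, so their separation follows in part from the choice.

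Tbx3 (chr5:119670534-119684724) had the lowest window median, −0.09, with 8 positive and 9 negative gains among 17 tested regions. Its gene end (chr5:119670237-119671171), where the lncRNA gene Tbx3os1 is annotated too, ranked 40206, 57213 and 43843 in Stag2-WT and 26306, 47917 and 43216 in Stag2-KO. The groups overlapped and the gain was 0.30 ± 0.28 (limma adjusted p = 0.653). The strongest region (chr5:119634879-119635301) lay within Tbx3os1, 35233 bp below Tbx3, at 3757, 2765 and 1243 against 3581, 4097 and 2109, with overlapping groups (gain −0.42 ± 0.67). A region 93184 bp above the gene (chr5:119777908-119778407) ranked 40384, 61436 and 41049 in Stag2-WT and 94482, 89735 and 75292 in Stag2-KO. Here every Stag2-WT library was better, with a gain of −0.88 ± 0.25 (limma adjusted p = 0.263). Below the gene, a region in the lncRNA gene AW549542 (chr5:119575055-119575770) ranked 93523, 62759 and 62209 against 55879, 40226 and 61691, the last a narrow step ahead of the best Stag2-WT library (gain 0.47 ± 0.27, limma adjusted p = 0.421).

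Regions present in 1 genotype and missing in the other were few here, as they were in the whole genome. Among the best 50000 intervals of each library, 2 regions around the 9 genes had an interval in all 3 Stag2-KO libraries and in no Stag2-WT library, beside 1.05% of all 70492 regions at that length. They were the first starts of Pparg and the region 52769 bp above Klf5. None was found in all Stag2-WT libraries alone, beside 0.914% of all regions. Among the best 25000 there was 1 of each kind, beside 1.18% and 1.07% of all regions. Among the best 100000 there were 3 and 0 of the 308 regions, beside 0.996% and 0.893%. The number of regions around the 9 genes at the shorter lengths is not given here, so those counts are not shares. Where the other genotype was required to lack an interval in its whole lists there was none of either kind, beside 0.0184% for each, so both sites had an interval in at least 1 Stag2-WT library.

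Between 19 and 26 intervals of each library in these windows were among its best 10000, and not all of them were shared. Of the 308 regions, 11 (3.57%) held such an interval in all 6 libraries, beside 3.01% of all regions. Klf5, Foxa1 and Grhl2 had 2 each, Gata3, Pparg, Elf3, Ehf and Tbx3 had 1 each, and Grhl3 had none. Of these 11 only 1 lay at a gene end, that of Timm17a above Elf3 (chr1:135313237-135314145), which ranked 224, 2917 and 1154 in Stag2-WT and 814, 3560 and 1510 in Stag2-KO. The other 10 lay in gene bodies or between genes. The second of Klf5 (chr14:99373706-99374072), 60294 bp above the gene, ranked 1855, 4035 and 1161 against 5412, 7811 and 2550, with overlap only between Stag2-WT replicate 2 and Stag2-KO replicate 3 (gain −1.21 ± 0.70, limma adjusted p = 0.419). The second of Grhl2 (chr15:37312757-37313325), in the gene body, ranked 3222, 5321 and 4865 against 1812, 3354 and 2824, with Stag2-KO replicate 2 behind Stag2-WT replicate 1 (gain 0.76 ± 0.58, limma adjusted p = 0.526).

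The genes whose chosen end was nearest in pattern to that of each factor, by Euclidean distance over the −log2 ranks of the 6 libraries, were Zfp503 for Foxa1 (0.0930), Dhrs3 for Pparg (0.157), Ppp4r3a for Grhl2 (0.189) and Adamts5 for Grhl3 (0.0872). For the others they were Sox15 for Elf3 (0.211), Tpi1 for Ehf (0.198), 1810055G02Rik for Klf5 (0.0998) and Tmem64 for Tbx3 (0.228). None of the 8 tested factors was nearest to another. With 13306 gene ends to choose from, this says little about the factors.

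Other epithelial factors and the luminal genes downstream gave the frame for these gene ends. Of 26 other epithelial transcription factors, 21 gene ends were tested and none was called by limma in either direction. At an unadjusted p below 0.05, 1 of the 21 had a better rank in Stag2-KO and 0 a poorer one, beside 11.2% and 1.96% of all gene ends. Gains were positive for 16 and negative for 5, with a median of 0.26, beside 70.3% positive and a median of 0.23 over all gene ends. Klf6, a relative of Klf5, had the largest gain of this list, 0.81 ± 0.33 (limma adjusted p = 0.345), with ranks of 34289, 38489 and 44469 against 14189, 24256 and 31790. All its Stag2-KO ranks were better than those of Stag2-WT. Id1, an inhibitor of helix-loop-helix factors, had the lowest, −0.21 ± 0.25. Of 25 luminal differentiation genes, 21 were tested, none was called in either direction, and 6 had a better rank in Stag2-KO and 0 a poorer one at an unadjusted p below 0.05, beside the same 11.2% and 1.96%. Their median gain was 0.40, 16 being positive and 5 negative. Upk1b, a uroplakin of the umbrella cell surface, had the largest gain, 1.53 ± 0.39 (limma adjusted p = 0.307), with ranks of 34460, 31215 and 38146 against 6928, 12349 and 19715. Those groups did not overlap either. Tmprss2, a membrane serine protease, had the lowest gain, −0.31 ± 0.37 (limma adjusted p = 0.737), with ranks of 19015, 50717 and 24719 against 35097, 49592 and 25922 and overlapping groups.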

How the data were processed

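Peak lists of 6 ATAC-seq libraries were used, each called on its own library. The submitters' processing notes name the build mm10 and the tool DiffBind, of which no output was used. The aligner and the peak caller: not given in the sources used here. Each peak has, as deposited by the authors, a fold over its background (a ratio), −log10 p and −log10 q (p-value and q-value), and a display score, not used here. Since these values depend on depth, they served to rank intervals within 1 library. Peaks of Stag2-KO replicate 1 started at a −log10 p of 3.00 and the others at 2.00.

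Peaks sharing an interval were reduced to 1 distinct interval with its best values. The best 100000 intervals by fold were merged to regions. With limma 3.58.1 (R 4.3.3), −log2 ranks were compared for regions and for gene ends (500 bp on either side) that had an interval in 3 or more libraries, with a variance trend and Benjamini-Hochberg adjustment over all regions or all gene ends, at 0.05. For single values the exact permutation test was two-sided. Background coverage was solved from fold and p under a Poisson background; whole coverages fitted 100% of 4000 peaks sampled per library, within 0.002 in −log10 p. No count of reads was used. The other steps used Python 3.11.15, NumPy 2.4.6, pandas 2.3.3, SciPy 1.17.1 and matplotlib 3.10.9. The rank test was tested on simulated data.

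Gene spans were those of GRCm38.p6, whose coordinates are those of mm10; exons and UTRs were not used, and regions were divided into those at gene ends, in gene bodies and between genes. Strand was taken from the RefSeq promoter table, which matched 5 of the 9 genes. Named were the 9 genes, the intervals at their ends, the best-ranked region of each window outside gene ends, the regions with the smallest p in each direction, called and all-or-none regions, the nearest gene end in pattern, and the largest and smallest gain of each list. Other regions named were chosen after their values were seen. The genes and lists were chosen with earlier results of these data known. The lists were 26 epithelial transcription factors, 25 luminal differentiation genes and markers of urothelium, fibroblasts, smooth muscle, endothelium and leukocytes.

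The replicate numbers of the labels were used as a block in an alternative: deviations from the group means correlated between same-numbered libraries over all tested regions at 0.105, 0.557 and 0.401, each over 0.1. Between differently numbered libraries the values ran from −0.513 to 0.318, the highest for Stag2-WT replicate 1 with Stag2-KO replicate 3. Other alternatives were ranking by −log10 p, the best 50000 intervals, a −log10 q of at least 2, 501 bp windows at summits, an interval in all 6 lists, linear ranks, 1000 bp at gene ends, 50 kb or no widening, the gene-end share of each library as a covariate, and leaving out each library. Ranking by −log10 p together with that covariate was added after seeing the data.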

Additional observations from a re-analysis of the deposited data

How the results depend on the processing

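None of the 230 regions or 8 gene ends was called in any setting except 4 regions called with a better rank in Stag2-KO without Stag2-KO replicate 3, so the count with a better rank ranged from 0 to 4 over the fits that leave out 1 library, with gains of 1.36 (Syn2, near Pparg), 1.91 (Klf5), 1.16 and 0.94 (Grhl2). Over all regions, the 12 called with a better and 9 with a poorer rank became 31 and 21 by −log10 p, 2 and 2 with the best 50000 intervals, 16 and 16 with the replicate block, and 0 and 0 both with the covariate (the share of each library's intervals near gene ends) and with an interval required in all 6 lists, where fewer regions were tested. Leaving out 1 library gave 1 to 835 and 1 to 1578, the highest counts without Stag2-KO replicate 3. The block changed no other call. Regions found only in Stag2-KO numbered 2 among the best 50000, 1 among the best 25000 and 0 over whole lists; those found only in Stag2-WT numbered 0, 1 and 0.

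Of the gains of named sites, 462 values under alternatives kept direction and call, 25 changed sign and 2 became called. Of those that kept their sign, the covariate made 12 of 30 gains smaller and 6 larger by over 1.5 times, −log10 p 10 and 10 of 31, both together 20 and 4 of 30, and leaving out 1 library 20 and 24 of 198. By −log10 p, the sign changed at Ehf 103238989 (−0.0756), Pparg 115462880 (−0.21), Foxa1 57449868 (−0.17) and the Elf3 end (−0.36). With the covariate it changed at Tbx3 119634879 (0.67), Klf5 99324408 (0.41), and the ends of Grhl3 (−0.15), Elf3 (−0.11) and Ehf (0.47). With both, it changed at Elf3 135171956 (0.15), Tbx3 119634879 (0.21), and the ends of Grhl3 (−0.0744), Elf3 (−0.11) and Ehf (0.21). Linear ranks gave a difference of 0.53 (in units of 1000 ranks) at Klf5 99324408, and 1000 bp windows −0.0622 at the Foxa1 end. Leaving out 1 library in turn gave gains of both signs at 5 sites: Gata3 9802638 (−0.53 to 0.44), Klf5 99324408 (−0.72 to 0.71), Tbx3 119634879 (−0.76 to 0.0379), Grhl2 37275309 (−0.39 to 0.84) and the Elf3 end (−0.24 to 0.28). The cause was not tested. A −log10 q of at least 2 left every value as it was. With 3 libraries a group the exact test cannot go below 0.1, and groups of 3 were too small for a test of single outlying libraries. The best 100000 intervals all had a −log10 p of at least 10.2 to 18.1 by library, above the limits of the lists. Those limits therefore did not set the weakest intervals compared. The fold at rank 100000 ran from 3.65 in Stag2-WT replicate 1 to 5.30 in Stag2-WT replicate 2, and the part of depth in this was not tested.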

Other observations

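The windows also hold the ends of other genes, and these did not all go the same way. The end of Rnpep, an aminopeptidase gene 24525 bp above Elf3 (chr1:135282997-135284322), ranked 47892, 50029 and 52172 in Stag2-WT and 32612, 39444 and 41231 in Stag2-KO, without overlap (gain 0.41 ± 0.27, limma adjusted p = 0.472). The shared end region of Nipal3 and Stpg1 below Grhl3 (chr4:135493588-135495314) was nearly level over all 6 libraries, between 25389 and 28142 (gain −0.05 ± 0.31).

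Some neighbouring regions with opposite gains lay within 1 window. Beside the Syn2 region near Pparg, which ranked better in all Stag2-KO libraries, an intergenic region close by (chr6:115283889-115284667) ranked 7392, 11295 and 9878 in Stag2-WT and 16241, 17437 and 17254 in Stag2-KO, all poorer (gain −0.86). Both were chosen after their values were seen, and the difference between them was not tested.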
